A study of Mus musculus with 20 samples.

Results

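The genes described here are 38 genes that define or are strongly expressed in the medium spiny neurons of the striatum, the main output neurons of that region. They were chosen by symbol from a named list, and all 38 were found among the 12988 genes of the count table. Of these, 5 are linked to neurons with the dopamine D1 receptor, 4 to neurons with the dopamine D2 receptor, and 29 are shared by both kinds. A separate division put 12 of the 38 aside as genes that neurons of the bed nucleus are also known to express. RNA was measured in the bed nucleus of the stria terminalis of mice, in its anterodorsal part (adBNST), a small region of the extended amygdala that lies below the striatum and beside the septum. The 4 groups were female control, female stressed, male control and male stressed mice. Animals entered at an age of 7 to 9 weeks. The stressed groups went through 6 weeks of chronic variable mild stress (CVMS), and dissection followed their last stressor by 1 hour. Each group had 15 mice, and the dissected tissue of 3 mice was pooled for each library, so that 20 libraries were made, 5 for every group. The strain and genotype are not given in the sources used here, and all animals were anaesthetized with ketamine before the tissue was taken.

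Dopamine acts on medium spiny neurons through a pair of opposed receptors. The D1 receptor couples through the G protein alpha subunit Gnal to adenylyl cyclase, chiefly Adcy5, and raises cyclic AMP, while the D2 receptor lowers it and the adenosine A2a receptor of the same neurons raises it. Cyclic AMP activates protein kinase A, which turns Ppp1r1b (DARPP) into an inhibitor of protein phosphatase 1, and phosphodiesterases such as Pde10a, Pde1b and Pde7b end the signal. Many of these genes are also expressed, at lower levels, by the GABA neurons of the central extended amygdala, to which the bed nucleus belongs. In whole tissue, fewer cells of a type and less RNA per cell cannot be told apart, and neither can neurons of the bed nucleus and neurons of adjoining striatum that express the same gene.

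Promoters are shown for 3 members, because each holds a site named for a pathway that runs in these neurons. RefSeq promoters (build GRCm38.p6, from 250 bases before to 50 bases after a start site) were found for 28 of the 38 members, 51 promoters in all. The first belongs to Gpr6, a constitutively active receptor of D2 neurons that raises cyclic AMP. Its promoter at chr10:41072241-41072540, minus strand, was the only 1 of the 51 with the full cyclic AMP response element TGACGTCA, marked in capitals.
Gpr6: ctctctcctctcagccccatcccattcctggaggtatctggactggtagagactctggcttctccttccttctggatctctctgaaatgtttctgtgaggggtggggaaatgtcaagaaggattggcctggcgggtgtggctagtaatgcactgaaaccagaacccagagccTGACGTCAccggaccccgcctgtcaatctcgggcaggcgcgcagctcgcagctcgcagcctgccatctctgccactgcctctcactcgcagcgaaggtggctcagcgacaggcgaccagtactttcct
The second belongs to Rarb, the retinoic acid receptor beta, which is enriched in the striatum. The promoter at chr14:16575427-16575726, minus strand, holds GGTTCA and AGTTCA with 5 bases between them, the element through which retinoic acid is known to act on this gene. The capitals mark the whole element.
Rarb: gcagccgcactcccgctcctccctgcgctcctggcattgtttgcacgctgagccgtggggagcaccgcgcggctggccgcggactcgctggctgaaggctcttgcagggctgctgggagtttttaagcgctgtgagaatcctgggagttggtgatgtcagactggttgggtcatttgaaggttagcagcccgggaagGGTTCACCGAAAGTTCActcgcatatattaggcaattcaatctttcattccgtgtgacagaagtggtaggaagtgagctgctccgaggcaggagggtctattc
The third belongs to Isl1, a LIM homeodomain factor of D1 neurons whose levels, given below, did not follow the other members. The promoter at chr13:116309639-116309938, minus strand, holds the short cyclic AMP element TGACG at 59 bases before the start site and its reverse complement at 41 bases before it, both in capitals.
Isl1: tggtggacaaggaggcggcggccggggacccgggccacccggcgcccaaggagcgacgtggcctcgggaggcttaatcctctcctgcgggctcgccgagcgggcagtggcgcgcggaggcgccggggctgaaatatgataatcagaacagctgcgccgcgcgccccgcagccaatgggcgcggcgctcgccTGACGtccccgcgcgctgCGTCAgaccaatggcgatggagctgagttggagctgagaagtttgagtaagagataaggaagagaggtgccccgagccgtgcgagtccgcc
The shares below set the members beside all promoters, both strands searched. TGACGTCA was found in 1.961% of the members' promoters and in 1.79% of all 32851 RefSeq promoters of the same length. TGACG, which is contained in it, was found in 21.569% and 20.812%. In the 13357 promoters of genes in the count table, these shares were 3.002% and 30.179%. The forkhead core TGTTTAC was found in 1.961% of the members' promoters, 3.65% of all promoters and 2.471% of those of genes in the table. The nuclear receptor element AGGTCA was found in 11.765%, 16.255% and 11.814%, in the same order. The retinoic acid element of Rarb was present in 2 of the 32851 promoters, Rarb included. That element was searched for after the sequence had been seen. A match is a stretch of letters and no evidence of binding.

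The libraries held between 2707881 counts (female control 4) and 33595388 counts (male stressed 4), and no member had a count of 0 in any library. Markers of bed nucleus neurons were present throughout: all 11 listed markers, among them Crh and Prkcd, had counts in all 20 libraries. Of these, Gad1, Gad2 and Slc32a1 are genes of GABA neurons in general and are expressed by medium spiny neurons too. Libraries differed in markers of neighbouring tissue. The score of 8 thalamic markers, the mean of their log2 CPM (CPM being counts scaled to library size) centred on the mean of the 20 libraries, was 0.62 in female stressed 2 and 0.35 in female control 3, the highest values in their groups, and lay between -0.37 and 0.28 in the other libraries. Other lists, scored the same way, differed too. Female stressed 2 also had the highest hypothalamic (1.49) and cortical (0.91) scores of the 20 libraries, and female control 3 had a cortical score of 0.80. Female control 4 had thalamic and hypothalamic scores of 0.28 and 1.07 and a striatal score of 0.20. Male stressed 3 had the lowest thalamic (-0.37), hypothalamic (-1.76), cortical (-0.85), bed nucleus (-0.41) and oligodendrocyte (-0.46) scores of the 20 libraries. Its striatal score was 0.46. Female stressed 5 had bed nucleus and hypothalamic scores of -0.34 and -1.06 and a striatal score of 0.48. Male stressed 3 and female stressed 5 were left out only 1 at a time. What made the libraries differ was not tested. Female stressed 2 and female control 3 had the lowest striatal levels of their groups. The counts of members called, the medians, the gene pairs and the receptor ratio are therefore also given without them. Because the 2 are low in the genes examined, leaving them out raises the female levels and narrows the female spread by construction. Such values are no independent check.

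Levels spanned a wide range. Per kilobase of exon (GENCODE M21, mm10), Ppp1r1b was highest with 190 CPM per kilobase, followed by the G protein subunit Gng7 with 177, Pde1b with 118 and Adcy5 with 111. The 3 receptors that define the neuron types were close to each other, with 41.0 for Drd1, 40.7 for Drd2 and 40.4 for Adora2a. The lowest were Ebf1, a transcription factor of D1 neuron development, with 2.87, and Ido1, which breaks down tryptophan, with 2.86. Exons of 9 members overlap those of another annotated gene, in 8 cases on the other strand (such as Ppp1r1b and 1700003D09Rik, Six3 and Six3os1, Rarb and Top2b, and Gnal and Mppe1). Libraries were stranded, but whether strand was used in counting is not given in the sources used here, so reads in those stretches cannot be assigned with certainty.

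**Figure D1:**
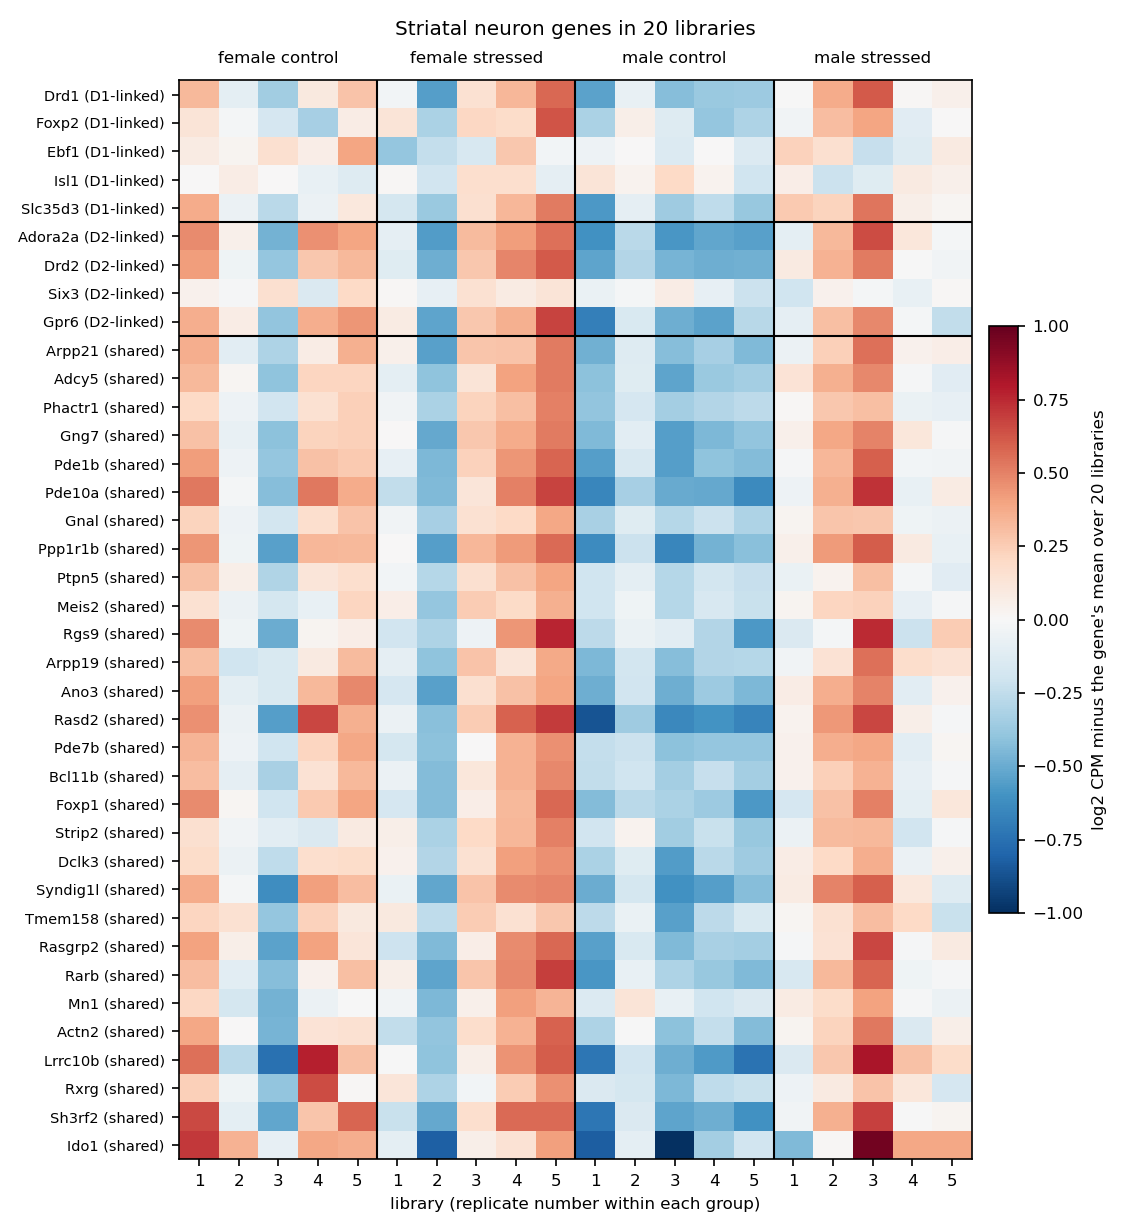
Heat map of the 38 genes (rows, grouped as D1-linked, D2-linked and shared, by falling mean level) in the 20 libraries (columns, by group and replicate number). Colour gives log2 CPM minus the mean of the gene over all 20 libraries. Most rows share their light and dark columns: female stressed 5 and male stressed 3 are high, while male controls, female stressed 2 and female control 3 are low, and Isl1 and Six3 stay pale throughout.

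The members went up and down together from library to library. Over the 20 libraries, the correlation of a member's log2 CPM with the mean of the other members had a median of 0.959, a description of genes that share libraries and scaling and are not independent. Female stressed 5 held the highest value for 18 members and male stressed 3 for 15, whereas male control 1 held the lowest value for 12, male control 3 for 8, female stressed 2 for 6 and female control 3 for 5. The median SD over the 20 libraries was 0.335 on the log2 scale, against 0.139 for all 12988 genes. It ran from 0.11 for Six3, a homeobox factor that D2 neurons require, to 0.53 for Ido1. Of the transcription factors, 3 stood outside the shared pattern: r with the mean of the other members was -0.17 for Isl1, 0.27 for Ebf1 and 0.36 for Six3. Others followed it, with r of 0.957 for Foxp1, 0.975 for Bcl11b, 0.966 for Rarb, 0.916 for Meis2 and 0.799 for Foxp2.

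The comparison of stressed with control males asked how these genes differed after chronic stress in that sex. No member passed the threshold (edgeR quasi-likelihood test, Benjamini-Hochberg adjusted p under 0.05 over 12988 genes), and across all genes 1 passed, 0.0077%. Levels were nevertheless higher in stressed males for nearly the whole list. Of the 38 members, 37 had a positive log2 fold change, with a median of 0.53 against -0.01 for all genes. At an unadjusted p under 0.05, 34 members were higher and 0 lower, against 8.71% higher and 6.76% lower of all genes. In 23 members the lowest stressed library lay above the highest control library, an order seen in 3.13% of all genes (the reverse order in 0 members and 1.16% of all genes). These 23 included the receptors Drd1, Drd2 and Adora2a, Ppp1r1b, Adcy5, all 3 phosphodiesterases and both G protein subunits.

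Among the receptors, Drd1 measured 99.9, 137, 108, 112 and 113 CPM in male controls 1 to 5 and 144, 187, 222, 146 and 150 CPM in stressed males 1 to 5. Every stressed male library was above every male control library, with means of 114 ± 13.9 and 170 ± 34.1 CPM (SD, n = 5 each) and a log2 fold change of 0.58 (SE 0.16, adjusted p 0.105). Drd2, the D2 receptor, measured 69.4, 81.8, 72.3, 71.2 and 71.7 CPM in male controls and 107, 127, 144, 99.8 and 97.6 CPM in stressed males. The male controls of Drd2 were closely spaced, apart from male control 2, and the log2 fold change was 0.65 (SE 0.17, adjusted p 0.0894). Adora2a, the adenosine receptor of D2 neurons, measured 78.0, 98.3, 79.0, 82.5 and 81.3 CPM in male controls against 110, 149, 186, 128 and 117 CPM in stressed males. Its log2 fold change was 0.73 (SE 0.19, adjusted p 0.0873), again with no overlap. Gpr6 measured 19.9, 28.8, 22.7, 22.1 and 26.4 CPM in male controls and 30.1, 39.3, 44.4, 31.5 and 26.9 CPM in stressed males. Here male stressed 5 lay below male control 2, so the groups overlapped, and the log2 fold change was 0.53 (SE 0.19, adjusted p 0.166).

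**Figure D2:**
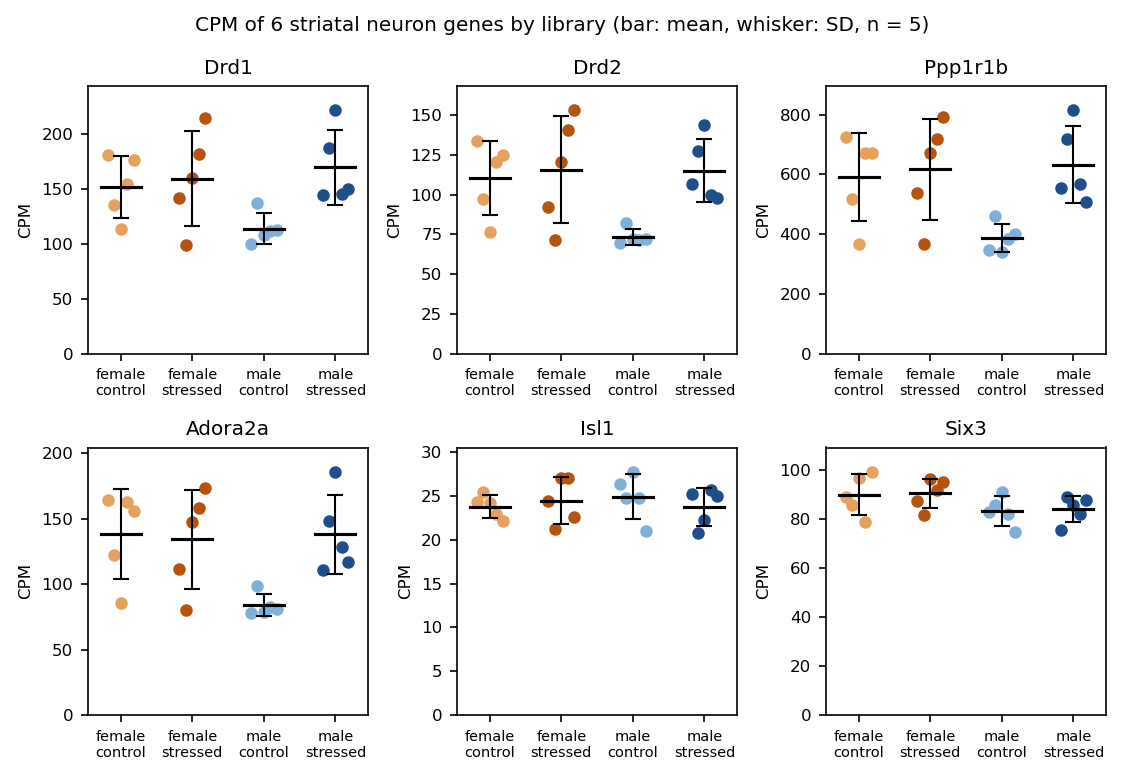
CPM of Drd1, Drd2, Ppp1r1b, Adora2a, Isl1 and Six3 in each library (points) by group, with the mean (bar) and SD (whisker, n = 5). In the first 4 genes the 5 male controls sit below all 5 stressed males, while the 4 groups of Isl1 and Six3 overlap.

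Downstream of the receptors, Ppp1r1b measured 347, 461, 341, 385 and 401 CPM in male controls and 556, 718, 815, 569 and 509 CPM in stressed males. No male control reached the lowest stressed male, and the log2 fold change was 0.71 (SE 0.18, adjusted p 0.0880). Rasd2, the small G protein Rhes, had the smallest p of the 38: it measured 131, 187, 152, 158 and 151 CPM in male controls and 244, 323, 378, 249 and 237 CPM in stressed males, with a log2 fold change of 0.88 (SE 0.20, adjusted p 0.0871). Arpp19, a phosphoprotein regulated by cyclic AMP, followed with 206, 248, 209, 229 and 231 CPM against 275, 311, 412, 317 and 312 CPM and a log2 fold change of 0.54 (SE 0.13, adjusted p 0.0871). Lrrc10b, a leucine-rich repeat protein, came next, with 26.8, 38.7, 31.5, 29.9 and 26.5 CPM against 40.1, 53.3, 77.7, 54.2 and 50.3 CPM and a log2 fold change of 0.89 (SE 0.23, adjusted p 0.0871). In all 3 genes the groups were apart. The log2 fold changes of the cyclic AMP and G protein genes ran from 0.35 (Gnal) to 0.76 (Pde10a), with 0.53 for Adcy5, 0.61 for Pde1b, 0.48 for Pde7b and 0.60 for Gng7. Ptpn5, the tyrosine phosphatase STEP, was among the smallest, with 0.23 (SE 0.11) and overlapping groups: 375, 402, 354, 379 and 368 CPM in male controls and 411, 443, 531, 425 and 397 CPM in stressed males.

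The transcription factors did not all follow the signalling genes. Foxp1 and Bcl11b, which are needed for medium spiny neuron differentiation, had log2 fold changes of 0.54 and 0.39 in stressed males with no overlap between groups. Rarb measured 41.4, 58.9, 50.1, 47.8 and 45.8 CPM in male controls and 55.5, 77.8, 93.2, 60.2 and 61.6 CPM in stressed males, with an overlap through male control 2 and a log2 fold change of 0.53 (SE 0.18, adjusted p 0.161). Foxp2, a forkhead factor of D1 neurons that is also found in the bed nucleus, measured 53.2, 69.0, 60.5, 50.8 and 53.6 CPM against 64.5, 82.3, 87.3, 61.2 and 66.5 CPM, a log2 fold change of 0.35 (SE 0.13, adjusted p 0.205). Meis2, a homeobox factor, measured 359, 400, 337, 368 and 352 CPM against 419, 478, 484, 389 and 408 CPM, a log2 fold change of 0.26 (SE 0.10, adjusted p 0.216). These last 3 overlapped between groups. Isl1 measured 26.4, 24.8, 27.8, 24.8 and 21.01 CPM in male controls and 25.3, 20.8, 22.3, 25.7 and 25.0 CPM in stressed males, a log2 fold change of -0.05 (SE 0.08). For Six3 the values were 83.0, 85.7, 91.3, 82.2 and 74.8 CPM against 75.6, 89.2, 85.7, 82.3 and 87.7 CPM, a log2 fold change of 0.02 (SE 0.06). Ebf1 had 0.08 (SE 0.10), so the same 3 genes that stood outside the shared pattern were those with the smallest differences in males. The male difference is part of the shared pattern over the same libraries, so these 2 properties are not independent. With group means removed, r with the other members was -0.06 for Isl1, 0.24 for Ebf1 and 0.28 for Six3.

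Split by neuron type, the median log2 fold change in males was 0.35 for the 5 D1-linked genes, 0.59 for the 4 D2-linked genes and 0.53 for the 29 shared genes. The number higher at an unadjusted p under 0.05 was 3 of 5, 3 of 4 and 28 of 29, against 8.71% of all genes. Among the 5 D1-linked genes are Isl1 and Ebf1, which lowers that median, whereas Drd1 and Slc35d3 (0.56, SE 0.15) were near the shared genes. Genes also expressed in the bed nucleus had a median of 0.46 over 12, and the other 26 a median of 0.53. The differences between these lists were not tested.

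**Figure D3:**
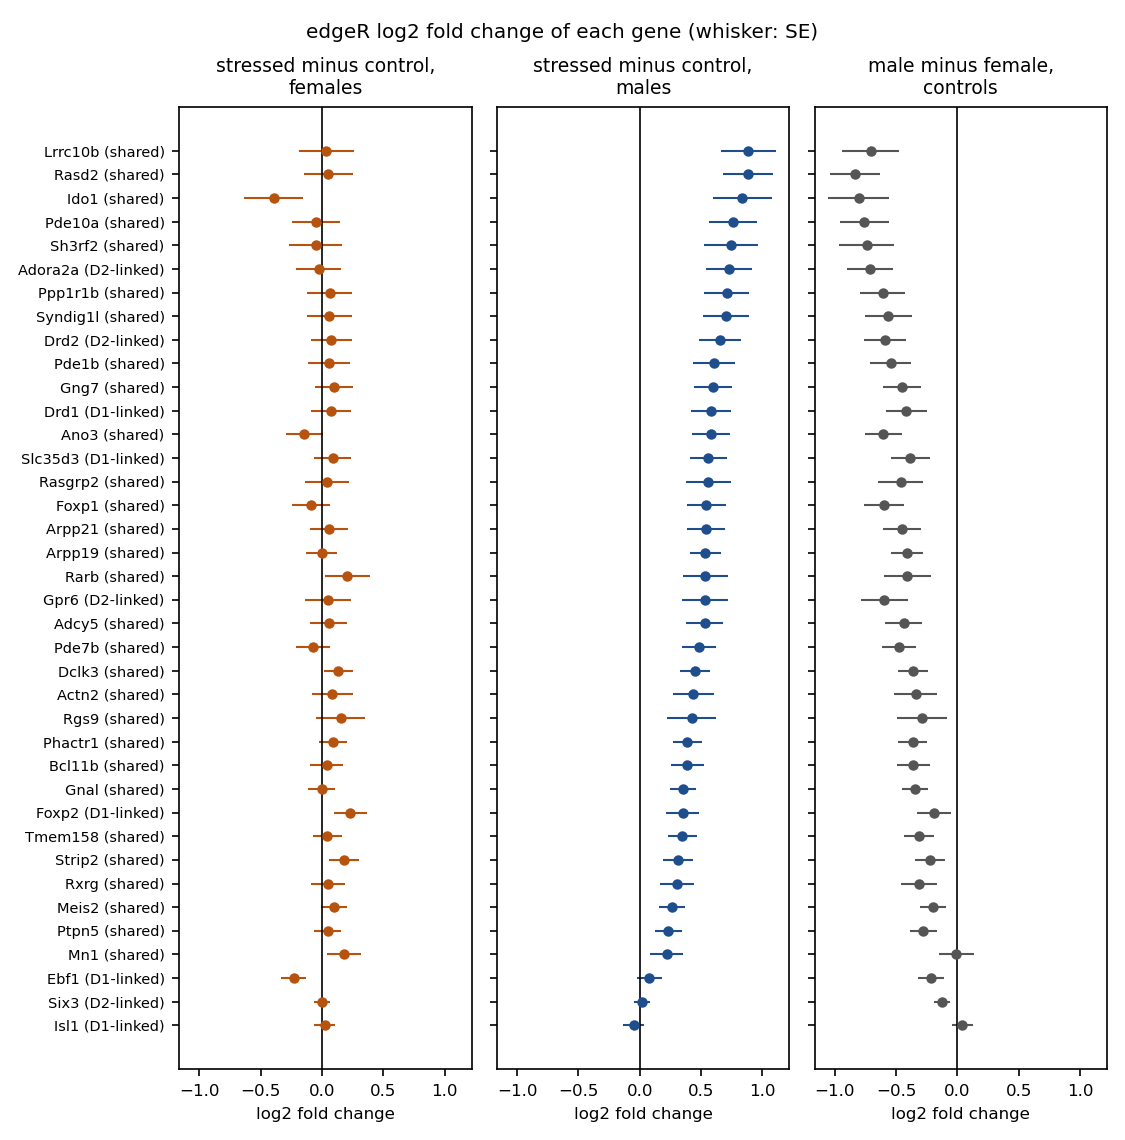
Log2 fold change of each of the 38 genes (points, with SE as whiskers) for stressed against control females, stressed against control males, and male against female controls, all with genes in the order of the male stress values. The male panel lies to the right of 0 for 37 genes and the control panel to the left for 37, while the female panel scatters about 0; the latter 2 panels share the male controls.

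In females, the members lay on both sides of 0 in the comparison of stressed with control libraries. In edgeR 0 members passed, as did 0% of all genes, and at an unadjusted p under 0.05 there were 0 members higher and 1 lower, against 3.69% and 3.83% of all genes. The median log2 fold change was 0.05, with 27 members above 0, and no member had groups that did not overlap (0.654% of all genes lay fully higher and 0.562% fully lower). Ebf1 had the smallest p, with 29.4, 28.2, 31.1, 29.0 and 36.5 CPM in female controls 1 to 5 and 21.3, 23.6, 24.8, 33.5 and 27.2 CPM in stressed females 1 to 5. Its log2 fold change was -0.23 (SE 0.10, adjusted p 0.649). Foxp2 measured 72.7, 65.3, 59.1, 52.7 and 69.9 CPM in female controls and 72.3, 53.2, 76.5, 75.4 and 103 CPM in stressed females (0.23, SE 0.14, adjusted p 0.732). Ido1 measured 7.98, 6.24, 4.62, 6.40 and 6.29 CPM against 4.57, 2.78, 5.09, 5.41 and 6.48 CPM (-0.40, SE 0.24, adjusted p 0.735). Female libraries were spread widely within both groups: Drd1 ran 181, 135, 114, 154 and 176 CPM in controls and 142, 98.5, 160, 182 and 215 CPM after stress, and Drd2 ran 134, 96.9, 76.7, 120 and 125 CPM and 92.2, 71.5, 121, 141 and 153 CPM. Ppp1r1b ran 726, 519, 368, 673 and 672 CPM in female controls and 538, 365, 673, 719 and 791 CPM in stressed females. In each of these 3 genes the lowest library of the group was female control 3 or female stressed 2. Without these 2 libraries the median was 0.06 and 0 members passed. With the oligodendrocyte score as a covariate the median was -0.06, so its sign turned.

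Male controls were also set against female controls. Again 0 members passed in edgeR, while 0.747% of all genes did. Levels were lower in male controls for 37 of the 38 members, with a median log2 fold change of -0.41 against 0.00 for all genes. At an unadjusted p under 0.05, 29 members were lower and 0 higher in males, against 8.17% lower and 7.08% higher of all genes. Fewer members had groups fully apart than in the stress comparison, with 5 lower in every male library and 0 higher (2.02% and 1.95% of all genes). The 5 were Ebf1, Pde7b, Foxp1, Ano3 and Ido1. This comparison and that of stressed with control males share the 5 male control libraries, so their values are not independent.

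Rasd2 had the smallest p of the sex comparison in controls, with 328, 228, 162, 378 and 305 CPM in female controls against the male values above and a log2 fold change of -0.84 (SE 0.21, adjusted p 0.0547). Ano3, an anoctamin family member, measured 366, 258, 248, 345 and 385 CPM in female controls and 197, 242, 197, 215 and 202 CPM in male controls, a log2 fold change of -0.60 (SE 0.15, adjusted p 0.0620). Its highest male control lay just under its lowest female control. Pde10a, the main striatal cyclic nucleotide phosphodiesterase, measured 868, 596, 449, 870 and 782 CPM in female controls and 383, 480, 426, 424 and 389 CPM in male controls (-0.76, SE 0.20, adjusted p 0.0677), with an overlap through female control 3 and male control 2. The log2 fold change was -0.71 for Adora2a (adjusted p 0.0740), -0.61 for Ppp1r1b (adjusted p 0.114), -0.59 for Drd2 (adjusted p 0.105) and -0.42 for Drd1 (adjusted p 0.229). Isl1 had 0.04 (SE 0.09) and Mn1, a transcriptional regulator, -0.01 (SE 0.14). The D2-linked genes had a median of -0.59, the D1-linked genes -0.21 and the shared genes -0.44.

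The sexes were also compared after stress. EdgeR called 0 members (0.077% of all genes), 0 members were higher or lower at an unadjusted p under 0.05 (3.71% and 3.35% of all genes), and the median log2 fold change was 0.02. No member had sexes that were fully apart, against 0.77% of all genes fully higher and 0.5% fully lower in males. Ido1 (0.43, SE 0.23), Six3 (-0.10, SE 0.06) and Arpp19 (0.13, SE 0.13) had the smallest p, with adjusted p of 0.719 for Ido1, 0.767 for Six3 and 0.878 for Arpp19. Without female stressed 2 and female control 3 the median was -0.10.

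Whether the difference between stressed and control libraries was the same in both sexes was tested as an interaction. A positive value means a larger difference in males. The interaction uses the same male control libraries as the comparisons above in which they were low, so it is not independent of them. The striatal score gave 0.456 for the interaction, with male minus female values of -0.417 in controls and 0.039 after stress. Which of the groups the interaction came from was not tested. By edgeR 0 members passed, like 0% of all genes, and 21 members were higher at an unadjusted p under 0.05 with 0 lower, against 5.34% and 5.03% of all genes. The median interaction was 0.48 over the 38 members, and 0.45 without female stressed 2 and female control 3. Ido1 was largest at 1.23 (SE 0.34, adjusted p 0.266), with 2.76, 4.57, 2.03, 3.87 and 4.28 CPM in male controls and 3.59, 4.93, 9.57, 6.38 and 6.39 CPM in stressed males. Its counts were low, under 100 in 12 of the 20 libraries and 14 in male control 3. Ano3 had 0.73 (SE 0.21, adjusted p 0.306) and Arpp19 0.54 (SE 0.18, adjusted p 0.348). The interaction therefore did not pass the threshold for any member. For stress averaged over the sexes, edgeR called 0 members (0% of all genes), with 28 higher and 0 lower at an unadjusted p under 0.05 (7.45% and 5.27% of all genes). The median was 0.29, also without the 2 libraries. The smallest p belonged to Dclk3, a doublecortin-like kinase (0.29, SE 0.08), Rasd2 (0.47, SE 0.14) and Gng7 (0.35, SE 0.11), each with an adjusted p of 0.256. In control females Dclk3 measured 133, 112, 98.3, 131 and 133 CPM, in stressed females 120, 95.5, 130, 156 and 161 CPM. It measured 94.1, 108, 79.3, 96.9 and 91.2 CPM in male controls and 123, 134, 151, 112 and 121 CPM in stressed males. Its stressed males were all above its male controls, while its female groups overlapped. Gng7 measured 796, 619, 490, 758 and 767 CPM, 653, 457, 784, 843 and 932 CPM, 479, 605, 443, 478 and 494 CPM, and 673, 850, 916, 704 and 646 CPM in the same order of groups, with the same pattern of overlap.

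The calls moved with the libraries and the test used. In stressed against control males DESeq2 called 12 members, where it called 1.67% of all genes, and limma-voom called 0. A fit of those 2 groups alone called 24 (2.33% of all genes), and without female stressed 2 and female control 3, 27 were called (2.98% of all genes), at a median of 0.53. In male against female controls the counts were 6 by DESeq2 (1.91% of all genes), 0 by limma-voom, 19 from the 2 groups alone (2.34%) and 13 with the oligodendrocyte score as a covariate (2.43%). Without the 2 libraries 26 were called (3.0% of all genes), at a median of -0.51. These alternatives thus raised the calls over all genes as well as among the members. In the other 4 comparisons DESeq2, limma-voom and the fit without those 2 libraries called 0 members each. Leaving out female stressed 2 alone gave 21 members in the male stress comparison (1.79% of all genes), 7 in the sex comparison of controls (1.56%) and 11 for stress averaged over the sexes (1.15%). Leaving out female control 3 alone gave 12 in the sex comparison of controls (1.65%). A male comparison changes when a female library is left out because the spread of each gene is estimated over all 4 groups. Leaving out female control 3, the lowest of its group in the striatal genes, widens the difference between controls by construction. Leaving out either of the 2 libraries narrows the spread used for these genes in all comparisons.

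The genes that work with the members in dopamine and cyclic AMP signalling were followed through a list of 36 partners found in the table (38 listed, with Drd3 and Drd5 not among its rows). In males, 0 partners passed after stress, 18 were higher and 0 lower at an unadjusted p under 0.05, against 8.71% and 6.76% of all genes, and the median log2 fold change was 0.15. Without female stressed 2 and female control 3, 11 passed, all higher, where 2.98% of all genes passed. Penk, the enkephalin precursor of D2 neurons, measured 514, 612, 511, 607 and 620 CPM in male controls and 750, 940, 954, 741 and 690 CPM in stressed males, fully apart (0.51, SE 0.14, adjusted p 0.103). Tac1, the substance P precursor of D1 neurons, had 0.48 (SE 0.14, adjusted p 0.119), and Pdyn, the dynorphin precursor, 0.16 (SE 0.10, adjusted p 0.501). The smallest p belonged to Rgs7bp (0.50, SE 0.12, adjusted p 0.0871), a membrane anchor for regulators of G protein signalling, and to Ppp1ca (0.30, SE 0.08, adjusted p 0.0895), a catalytic subunit of the phosphatase that Ppp1r1b inhibits. In female mice 0 partners passed, with 2 higher and 2 lower at an unadjusted p under 0.05 (3.69% and 3.83% of all genes), and the smallest p belonged to Rgs4 (-0.36, SE 0.13, adjusted p 0.597) and the cannabinoid receptor Cnr1 (-0.25, SE 0.11, adjusted p 0.637).

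Between control males and females 2 partners passed, both lower in males, where 0.747% of all genes passed. Rgs7bp measured 310, 232, 240, 332 and 336 CPM in female controls and 175, 202, 195, 203 and 204 CPM in male controls, a log2 fold change of -0.56 (SE 0.12, adjusted p 0.0307). Rgs4, which shortens signals through Gi and Gq proteins, measured 386, 273, 292, 465 and 424 CPM against 222, 266, 223, 250 and 243 CPM, a log2 fold change of -0.60 (SE 0.13, adjusted p 0.0337). Neither gene overlapped between the sexes. Both calls were lost in some alternatives, 8 of 29 for Rgs7bp and 9 of 29 for Rgs4, of which 7 for each left out 1 library, and adjusted p ranged from 0.00182 to 0.122 and from 0.00182 to 0.126. In the interaction 0 partners passed, with the smallest p for Rgs4 (0.73, SE 0.19, adjusted p 0.261) and Rgs7bp (0.62, SE 0.17, adjusted p 0.273). For stress averaged over the sexes these were the muscarinic receptors Chrm4 (0.40, SE 0.12) and Chrm1 (0.28, SE 0.09), both at an adjusted p of 0.256, and between stressed sexes the kinase Csnk1e (-0.08, SE 0.04, adjusted p 0.689) and the G protein subunit Gnai1 (0.12, SE 0.06, adjusted p 0.707), again with 0 partners passing. In control males against females, 15 of the 36 partners were lower and 0 higher at an unadjusted p under 0.05, against 8.17% and 7.08% of all genes. Without the 2 libraries 9 passed, all lower in males, where 3.0% of all genes passed.

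The ratio of Drd2 to Drd1 was computed to compare the D2 and D1 receptors within a library, where a shared scaling cancels, and was added after the levels had been seen. Its log2 had a mean of -0.466 ± 0.0774 in female controls, -0.471 ± 0.0973 in stressed females, -0.629 ± 0.0832 in male controls and -0.556 ± 0.0762 in stressed males (SD, n = 5 each). These ratios of CPM are not corrected for transcript length. The largest difference was that between control males and females, -0.163 with a raw p of 0.0159 and an adjusted p of 0.0635 over 4 tests (two-sided exact permutation test, whose smallest possible p is 0.00794). Male stressed minus male control was 0.0724, with a raw p of 0.190 and an adjusted p of 0.254 by the same exact test. Without female stressed 2 and female control 3 the difference between control males and females was -0.189 (4 against 5 libraries, adjusted p 0.0635 by the exact test). Its raw p of 0.0159 is the smallest that the exact test can give with 4 against 5 libraries. The difference between stressed and control males was as above.

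In all, 10 pairs of genes were followed over the 20 libraries (log2 CPM, two-sided permutation tests with 100000 permutations, adjusted over the 10 pairs and both coefficients). Libraries were permuted across all groups, so these p-values take no account of group. Drd1 and Drd2, which mark different neurons, had r = 0.967 and rho = 0.973, each with a permutation p of 1e-05, the smallest that the permutations can give. Without the 2 libraries farthest from the median of Drd1, r was 0.962, and with group means removed it was 0.962. It was 0.964 without female stressed 2 and female control 3. Ppp1r1b and Adora2a had r = 0.985, Drd2 and Penk r = 0.955, Ppp1r1b and Ptpn5 r = 0.942, each with an adjusted permutation p of 2.5e-05, and Drd1 and Pdyn r = 0.798 (adjusted permutation p 8.89e-05). Without female stressed 2 and female control 3 these r were 0.983, 0.948, 0.928 and 0.744 in the same order. Drd1 and Isl1 had r = -0.199 and rho = -0.223 (adjusted permutation p 0.443 and 0.404), and r was -0.0420 without the 2 farthest libraries and -0.400 without the 2 libraries of high thalamic score.

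Markers of other cells were compared with Ppp1r1b in the same way. Slc17a6, the glutamate transporter of thalamic neurons, had r = -0.626 and rho = -0.620 with Ppp1r1b (adjusted permutation p 0.00471 and 0.00733), r = -0.696 without the 2 farthest libraries and r = -0.744 with group means removed. Without female stressed 2 and female control 3, r was -0.503. It measured 72.2 CPM in female stressed 2 and 53.9 CPM in female control 3, and was at its lowest in male stressed 3, where the striatal genes were among the highest. Crh, the stress peptide of bed nucleus neurons, had r = -0.506 and rho = -0.463 (adjusted permutation p 0.0316 and 0.0518). Its r was -0.375 without the 2 farthest libraries, -0.787 without female stressed 2 and female control 3, and -0.0716 with group means removed. Within single groups r ran from -0.54 to 0.93, so neither its size nor its sign was the same in all groups. Prkcd, a kinase that marks a class of neurons in the bed nucleus, had r = -0.526 and rho = -0.514 (adjusted permutation p 0.0276 and 0.0309). Its r was -0.376 without the 2 farthest libraries and -0.623 without female stressed 2 and female control 3. Mbp, a myelin gene, had r = -0.0298 and rho = -0.0481 (adjusted permutation p 0.899 and 0.886). Its r was -0.364 without the 2 farthest libraries, -0.252 with group means removed and 0.121 without the 2 libraries of high thalamic score, so neither its size nor its sign was stable.

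**Figure D4:**
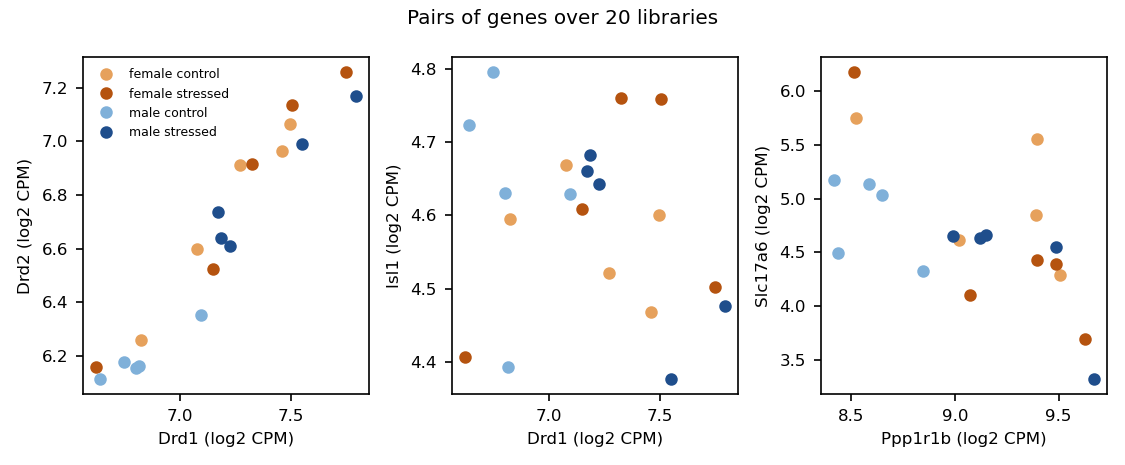
Log2 CPM of 3 pairs of genes in the 20 libraries (points, coloured by group). Drd1 and Drd2 lie along a line (r = 0.967), Drd1 and Isl1 do not (r = -0.199), and Slc17a6 is lower where Ppp1r1b is higher (r = -0.626).

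Marker lists of neighbouring and supporting cells were read beside the striatal genes as list scores. The score of the 38 members was -0.330 ± 0.119 in male controls, 0.141 ± 0.209 in stressed males, 0.0868 ± 0.264 in female controls and 0.102 ± 0.352 in stressed females (SD, n = 5 each), with no overlap between the male groups. Without female stressed 2 and female control 3 it was 0.188 ± 0.156 in female controls and 0.231 ± 0.235 in stressed females (SD, n = 4 each). The score of the 11 bed nucleus markers went the other way in males, with 0.156 ± 0.102 in male controls and -0.0777 ± 0.219 in stressed males. The male groups overlapped in this score. Of the 11 markers, 8 had negative and 3 positive log2 fold changes. Their summed level was 2601 to 2767 CPM in male controls and 2326 to 2852 CPM in stressed males. At an unadjusted p under 0.05, 4 of the 11 were lower and 0 higher after stress, against 6.76% and 8.71% of all genes. Most of that sum came from Gad1, Gad2 and Slc32a1, with 2151 to 2238 CPM in male controls and 1964 to 2315 CPM in stressed males. The other 8 markers scored 0.209 ± 0.137 in male controls and -0.113 ± 0.269 in stressed males (SD, n = 5 each), with overlap. The 7 markers of striatal interneurons scored -0.211 in male controls, -0.0328 in stressed males and 0.164 in female controls, and all 7 had negative log2 fold changes in male against female controls. Summed, they came to 189 to 220 CPM in male controls, 199 to 248 CPM in stressed males and 208 to 270 CPM in female controls. The 8 thalamic markers summed to 220 to 283 CPM in male controls, 183 to 242 CPM in stressed males, 228 to 361 CPM in female controls and 208 to 408 CPM in stressed females. Septal markers (5 genes) summed to 277 to 369 CPM in male controls and 280 to 417 CPM in stressed males, and oligodendrocyte markers (10 genes) to 8304 to 12875 CPM and 7299 to 11327 CPM. In females all 10 oligodendrocyte markers had negative log2 fold changes after stress, with a median of -0.22 and 5 at an unadjusted p under 0.05 (3.83% of all genes were lower). They summed to 9076 to 13091 CPM in controls and 8560 to 10505 CPM in stressed libraries. All 3 hypothalamic markers had negative log2 fold changes in stressed against control males, from -0.96 to -0.55 with a median of -0.77 and 1 at an unadjusted p under 0.05 (6.76% of all genes were lower). They summed to 17.9 to 28.7 CPM in male controls and 5.27 to 20.8 CPM in stressed males. Their score was 0.477 ± 0.380 in male controls and -0.285 ± 0.887 in stressed males. In females it was 0.160 ± 0.637 in controls and -0.352 ± 1.04 after stress (SD, n = 5 each). Without female stressed 2 and female control 3 the female values were 0.0745 ± 0.702 and -0.812 ± 0.207 (SD, n = 4 each). Over all libraries the fitted log2 fold changes in females were positive for 2 of the 3, with a median of 0.005. The 2 cortical markers also both had negative log2 fold changes in stressed males, with a median of -0.36. They summed to 10.2 to 19.5 CPM in male controls and 6.40 to 15.3 CPM in stressed males. In stressed females both were negative too, with a median of -0.19. All 6 microglial markers had negative log2 fold changes in male against female controls, 4 of them at an unadjusted p under 0.05 (8.17% of all genes were lower). So did all 10 oligodendrocyte and 7 of 8 thalamic markers. Of the 11 bed nucleus markers, 8 were higher in male controls and 3 lower, with 4 higher and 1 lower at an unadjusted p under 0.05. In edgeR 1 of these 11 passed (adjusted p 0.0306), and 1 of 5 endothelial markers (adjusted p 0.0122), where 0.747% of all genes passed. None of the listed markers found in the table was at 0 in any library. The part of these cell types in the striatal differences was not tested.

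**Figure D5:**
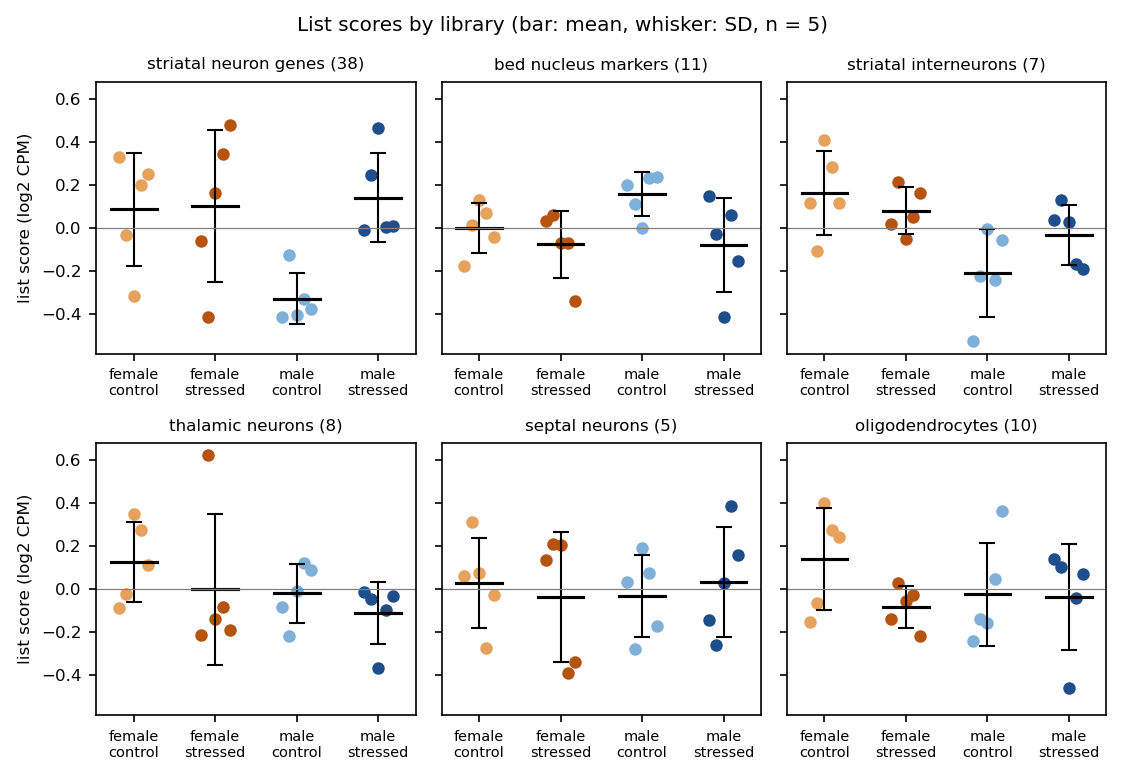
List scores (mean log2 CPM of the listed genes, centred on the 20 libraries) by library (points) and group, with the mean (bar) and SD (whisker, n = 5), for the striatal genes and 5 marker lists. Male controls are the lowest group for the striatal genes, at -0.330, and the highest for bed nucleus markers, at 0.156, and the thalamic point at 0.62 is female stressed 2.

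Outside the 38 members, genes whose log2 CPM was most like the striatal score over the 20 libraries included Gabrd, a GABA receptor subunit, with r = 0.988, Ndrg4 with 0.979, Prkcb, a protein kinase C, with 0.977, and Itpr1, the calcium release channel of the endoplasmic reticulum, with 0.977. Those most opposed were Bcat1 (-0.950), Grb10 (-0.945), Gtf2ird2 (-0.926), Gprasp2 (-0.914) and Gng2 (-0.913). Gabrd ranged from 34.3 CPM in female stressed 2 to 85.6 CPM in male stressed 3, and Bcat1 from 79.3 CPM in male stressed 3 to 124 CPM in male control 3. These genes were picked as the extremes of all genes by this measure, so their r is a description.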

How the data were processed

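RNA was sequenced from 20 libraries of 4 groups, each library a pool of 3 mice, for which, per the labels' protocols, the mRNA kit kept strand. The deposited table holds whole-number counts per gene symbol, without normalization; the submitters' processing notes name STAR, featureCounts and mm10. All 12988 genes have a row total of at least 1002. EdgeR 4.0.16 (R 4.3.3) was used with TMM scaling, filterByExpr (which kept every gene), 1 mean per group over all 20 libraries, its quasi-likelihood test (robust option off), and Benjamini-Hochberg adjustment over all genes in each of 6 contrasts, with calls at an adjusted p under 0.05. P-values are two-sided. Log2 fold changes carry the SE of the fit. CPM values use TMM factors, and log2 CPM for scores and correlations a prior count of 2. The common biological coefficient of variation was 8.83%. Scripts were tested on simulated data.

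The libraries are pools, so p-values measure the spread between pools of 3 mice. Members, lists, tests and alternatives (DESeq2 1.42.0, its size factors, limma-voom with limma 3.58.1, no filter, the robust option, a block for the replicate number, only the groups compared, an oligodendrocyte covariate, each library left out) were chosen with earlier results of these data known. Leaving out the 2 libraries with high thalamic scores, the bed nucleus score without its GABA genes, the Drd2 to Drd1 ratio and the retinoic acid element were added after the values were seen. Values per library are given for the 3 members with the smallest p in a contrast, for Drd1, Drd2, Adora2a, Ppp1r1b, Isl1, Foxp2, Meis2, Ptpn5, Rarb and Gpr6, and for called partners; Penk, Pdyn, Tac1 and the 2 partners with the smallest p in a contrast are also named. Gene positions came from GENCODE M21 and promoters from RefSeq. Correlations and ratios used SciPy 1.17.1. Protein sequences were not used here. Among the genes most like the striatal score, 1 is not reported here.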

Additional observations from a re-analysis of the deposited data

Results flagged for a closer look

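Within groups of 5 libraries, 4 of 164 gene and group combinations had a library far from the other 4, which is 2.44%, while chance gives about 5%, 1 in 20. Drd2 was 81.8 CPM in male control 2, with the other male controls between 69.4 and 72.3 CPM. Adora2a was 98.3 CPM in the same library, with the others between 78.0 and 82.5 CPM. Rasgrp2, a calcium-activated exchange factor, was 123 CPM in male stressed 3, with the other stressed males between 76.9 and 85.8 CPM. Tmem158 was 76.8 CPM in female control 3, with the other female controls between 107 and 118 CPM.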

How the results depend on the processing

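In the comparison of stressed with control males, 0 members were called (0.0077% of all genes). DESeq2 called 12 (1.67% of all genes) and a fit of only the groups compared 24 (2.33%). Without the 2 libraries with high thalamic scores 27 were called (2.98%). Leaving out 1 library at a time gave 0 to 21, with 21 without female stressed 2 (1.79%) and 1 without male stressed 5. For the fit without male stressed 5 the share of all genes is not given here, so its count cannot be set against it. In male against female controls, 0 were called (0.747% of all genes). DESeq2 called 6 (1.91% of all genes), only the groups compared gave 19 (2.34%) and the oligodendrocyte covariate 13 (2.43%). Without the 2 libraries 26 were called (3.0%). Leaving out 1 library gave 0 to 12. These were 12 without female control 3 (1.65%), 7 without female stressed 2 (1.56%), 4 without female stressed 5 and 2 without male stressed 3. The shares of all genes without female stressed 5 and without male stressed 3 are likewise not given here. For stress averaged over the sexes leaving out 1 library gave 0 to 11, the highest without female stressed 2 (1.15% of all genes). In stressed against control females, between stressed sexes and in the interaction each alternative gave 0; a fit of only the groups compared does not apply to the interaction or the average, which use all 4 groups. Signs turned for Six3 in males without male control 5 (-0.018, in a range up to 0.053 over libraries left out) and for Mn1 in control males against females (range -0.10 to 0.096), which had 0.096, 0.011, 0.0035, 0.022 and 0.0071 without female control 1, female control 5, male control 1, male control 4 and male control 5 in turn. All 864 alternative values of the score differences moved by less than the spread between libraries. Of these, 720 left out 1 library, which can hardly move a group mean that far, so this limit is no evidence of stability. In 2 comparisons the score differences lay near 0 and the sign turned, in 28 of 144 alternatives for stress in females and 23 of 144 between stressed sexes. For the 38 members the score difference after stress in females was lowest with female control 3 left out (-0.0861) and highest with female stressed 2 left out (0.144). Between stressed sexes these were -0.0895 with female stressed 2 left out and 0.134 with female stressed 5 left out. Without the 2 libraries r of Ppp1r1b with Mbp was 0.121. The Drd2 to Drd1 ratio in females ran from -0.0307 to 0.0330 over libraries left out. Apart from the construction of fits with fewer samples, the cause of these changes was not tested. Counts were lowest for Ido1, at 14 in male control 3, and all groups had 5 pools.

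Replicate numbers are shared by all groups, but they did not pair the libraries: the correlation of deviations from group means had a median of -0.0116 over 30 same-numbered pairs (from -0.473 to 0.237) and of 0.0143 over 120 others. With the replicate number as a block, 0 members were called in each of the 6 contrasts, as without it, and the calls of Rgs7bp (-0.56) and Rgs4 (-0.60) between control males and females were lost, both at an adjusted p of 0.0569 in edgeR.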
